A study of Mus musculus with 19 samples.

Results

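The comparison described here sets OT-I CD8 T cells taken 115 days after transfer into irradiated mice against the same kind of cells taken 5 days after transfer. It rests on 11 of the 19 arrays of the series, chosen by their sample titles: 3 arrays of day 115 and 8 arrays of day 5. OT-I cells are CD8 T cells from mice with 1 transgenic receptor, which recognises an ovalbumin peptide presented by H2-Kb. Both groups consisted of OT-I cells put into irradiated B6 hosts, with no antigen named in the labels, with lymph node and spleen named as the source of the sorted cells. The descriptions of the day-5 arrays name day 6 as the day of sorting, the titles name day 5, and the descriptions of day-5 arrays 1 and 2 leave the cell type out. The labels state neither the sex or age of donors and hosts, nor the radiation dose, nor how many animals gave each sample, so that p-values measure the spread between these arrays, which may be technical. Unirradiated hosts at day 115 were not analysed here, so time after transfer and a lasting effect of the irradiated host cannot be told apart. The 4 arrays of day 40 and the 4 of unirradiated hosts sorted at day 6 are used here for the estimate of spread and for orientation.

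Irradiation empties the lymphocyte compartment, and T cells placed into such a host divide without foreign antigen, a process called homeostatic or lymphopenia-induced proliferation. It is driven by self-peptides on MHC molecules and by the cytokines interleukin-7 and interleukin-15. Division stops once the compartment has filled, and CD8 T cells that went through it keep a phenotype like that of memory cells, with chemokine receptors, interleukin-2 and interleukin-18 receptor chains and stored cytotoxic molecules.

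The day-5 arrays did not form 1 uniform group, and both views of them are given throughout. Average-linkage clustering of all arrays on their correlation gave 2 clusters, one that held every day-115 array together with day-5 arrays 1 to 3 and the first pair of day 40, the other with day-5 arrays 4 to 8 and the rest. Correlations of a day-115 array with day-5 arrays 1 to 3 were 0.918 to 0.951 (median 0.944), against 0.938 to 0.973 (median 0.948) within day 115, and with day-5 arrays 4 to 8 they were 0.828 to 0.893. No day-115 array lay in the second cluster, and all 4 arrays of unirradiated hosts did. Wherever day 115 is set beside unirradiated hosts below, group and cluster therefore cannot be told apart. Day-5 arrays 2 and 3, 5 and 6, and 7 and 8 were closer to each other than other arrays of a group. The SD of the log2 difference was 0.154 to 0.201 in these and the like pairs of other groups. It was 0.227 to 0.455 in 19 other pairs of the same group and cluster. The close pairs were picked by a small SD, so this gap follows in part from the choice. Whether the arrays of a pair share a source is not stated, and counts with each close pair averaged into 1 sample are given as a second value. The Y-linked gene Eif2s3y had signals of 264 and 305 in day-5 arrays 5 and 6 and of 10.2 to 13.7 in the other day-5 and all day-115 arrays, so that arrays with and without a Y-linked signal were mixed within day 5. The co-receptor gene Cd8a, which marks the sorted cells, had signals of 2266, 2082 and 1890.0 at day 115 and 1851 to 3906 (median 3269) at day 5. Cd3e, part of the CD3 complex that signals for the receptor, had signals of 256, 206 and 269 and 218 to 282 (median 247) in the same order. Both T cell markers were well above the array median of 49.6 to 53.7 in all 11 arrays.

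Between day 5 and day 115, mitosis genes such as Ccnb2 and Cdk1 fell, and among the genes that rose were Ccl5, Fasl and Gzmm of cytotoxic cells, the chemokine receptor gene Cxcr3 and the interleukin-18 receptor genes Il18r1 and Il18rap. A gene counted as changed at an adjusted p under 0.05 (limma, Benjamini-Hochberg over all tested probe sets). Differences are on the log2(signal + 16) scale, day 115 minus day 5, given ± standard error, and understate the change of dim genes. Against all 8 day-5 arrays, 1205 of 8695 probe sets changed (13.9%), of which 716 were higher (8.23%) and 489 lower (5.62%) at day 115. Against day-5 arrays 1 to 3, 1130 changed (13%), 528 higher (6.07%) and 602 lower (6.92%). Counted by gene, with 1 probe set for each of 6409 genes, 557 were higher (8.69%) and 336 lower (5.24%) against 8 arrays, and 419 were higher (6.54%) and 397 lower (6.19%) against arrays 1 to 3. Against arrays 4 to 8 alone, where time and cluster cannot be told apart, 44.8% of probe sets changed. The genes named as the largest rises and falls were taken from 221 higher (3.45%) and 115 lower genes (1.79%) that passed in both comparisons with no overlap between day 115 and the 8 day-5 arrays. The shares by gene in each comparison are the background for the list counts that follow. The median difference over all tested genes was -0.005 against 8 arrays and -0.03 against arrays 1 to 3. The 2 comparisons share the 3 day-115 arrays and day-5 arrays 1 to 3 and are not independent of each other.

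Many genes of the mitotic machinery fell between day 5 and day 115. Of 33 tested mitosis genes, 17 were lower at day 115 and 0 higher against all 8 day-5 arrays, with a median difference of -0.71. Against arrays 1 to 3, 8 were lower and 0 higher, with a median of -0.52. Counted with close pairs averaged, 14 were lower against 8 arrays and 1 against arrays 1 to 3, and without day-115 array 2 the counts were 7 and 4. Without day-5 array 2 or 3, 3 and 4 mitosis genes were lower against arrays 1 to 3. As a mean over the list, each array's log2 level relative to unirradiated hosts was -0.124, -0.221 and -0.216 in the 3 day-115 arrays, and from 0.097 to 1.213 in the 8 day-5 arrays. Day-5 arrays 2 and 3 were the lowest of day 5, at 0.097 and 0.211, and array 4 the highest.

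Ccnb2, which encodes cyclin B2, had signals of 94.05, 70.2 and 69.5 at day 115, of 297, 163 and 240.3 in day-5 arrays 1 to 3, and of 118 to 240.5 in arrays 4 to 8. All 3 day-115 arrays lay below all 8 day-5 arrays. The difference was -1.15 ± 0.22 against 8 arrays (adjusted p = 0.00334) and -1.38 ± 0.25 against arrays 1 to 3 (adjusted p = 0.00265). Cdk1, the kinase that cyclin B activates, had signals of 70.2, 54.3 and 48.9 at day 115, against 229, 112 and 143 in arrays 1 to 3 and 86.2 to 333 in arrays 4 to 8. Its day-115 signals were near those of the unirradiated hosts, 48.8 to 69.7. It fell by 1.41 ± 0.31 against 8 arrays (adjusted p = 0.00771) and by 1.22 ± 0.37 against arrays 1 to 3 (adjusted p = 0.0387). Plk1, a kinase of the mitotic spindle, had signals of 78.6, 80.8 and 65.5 at day 115 and of 119 to 221 (median 165) over the 8 day-5 arrays. It fell by 1.00 ± 0.14 (adjusted p = 0.000307) and by 0.83 ± 0.14 (adjusted p = 0.00221), while of its other probe sets one passed in both and one, at -0.10 against 8 arrays, in neither. The call of Cdk1 against arrays 1 to 3 was lost without day-5 array 1, 2 or 3 or day-115 array 1, 2 or 3 (adjusted p up to 0.109). Cdk1 and Plk1 did not pass against arrays 1 to 3 with close pairs averaged (adjusted p = 0.0979 and 0.0531). Cdk1 did not pass against arrays 1 to 3 with a pseudocount of 64.

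Several genes with large falls had a wide spread at day 5. Pclaf, which binds the sliding clamp of replication, had signals of 19.2, 23.9 and 20.3 at day 115, against 192, 43.8 and 69.7 in arrays 1 to 3 and 139 to 547 in arrays 4 to 8. The day-115 signals lie below the filter level of 26.4 and near the floor of the arrays. The difference was -2.50 ± 0.49 against 8 arrays (adjusted p = 0.00347) and -1.46 ± 0.41 against arrays 1 to 3 (adjusted p = 0.0259). Pcna, the clamp itself, had signals of 336, 145 and 331 at day 115 and 522 to 1517 (median 1062) at day 5. It fell by 1.87 ± 0.33 (adjusted p = 0.00184) and by 1.33 ± 0.31 (adjusted p = 0.0119), and lay below its range in unirradiated hosts, 619 to 938, in every day-115 array. Top2a, the topoisomerase that untangles chromosomes, had signals of 35.9, 37.6 and 26.9 against 160.0, 51.6 and 72.1 in arrays 1 to 3 and 150.1 to 635 in arrays 4 to 8. It fell by 1.97 ± 0.44 against 8 arrays (adjusted p = 0.00733), and against arrays 1 to 3 the difference of -1.05 ± 0.37 did not pass (adjusted p = 0.066). Mki67, the gene of the proliferation marker Ki-67, behaved alike, with 17.4, 14.6 and 19.8 at day 115, 32.5 to 386 (median 71.2) at day 5 and adjusted p values of 0.0107 and 0.0975. A dimmer probe set of Mki67 differed by -0.098 and passed in neither. The call of Pclaf against arrays 1 to 3 was lost without day-5 array 1 or 3 or day-115 array 1 (adjusted p up to 0.0899). The call of Pcna against arrays 1 to 3 was lost without day-115 array 2 (adjusted p up to 0.0511). The call of Mki67 against 8 arrays was lost without day-115 array 2 (adjusted p up to 0.052). Pclaf and Pcna did not pass against arrays 1 to 3 with close pairs averaged (adjusted p = 0.0648 and 0.0925). Mki67 did not pass against 8 arrays with only the arrays compared in the fit. Pclaf and Pcna did not pass against arrays 1 to 3 with only the arrays compared in the fit. Pclaf did not pass against arrays 1 to 3 with a pseudocount of 64.

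**Figure D1:**
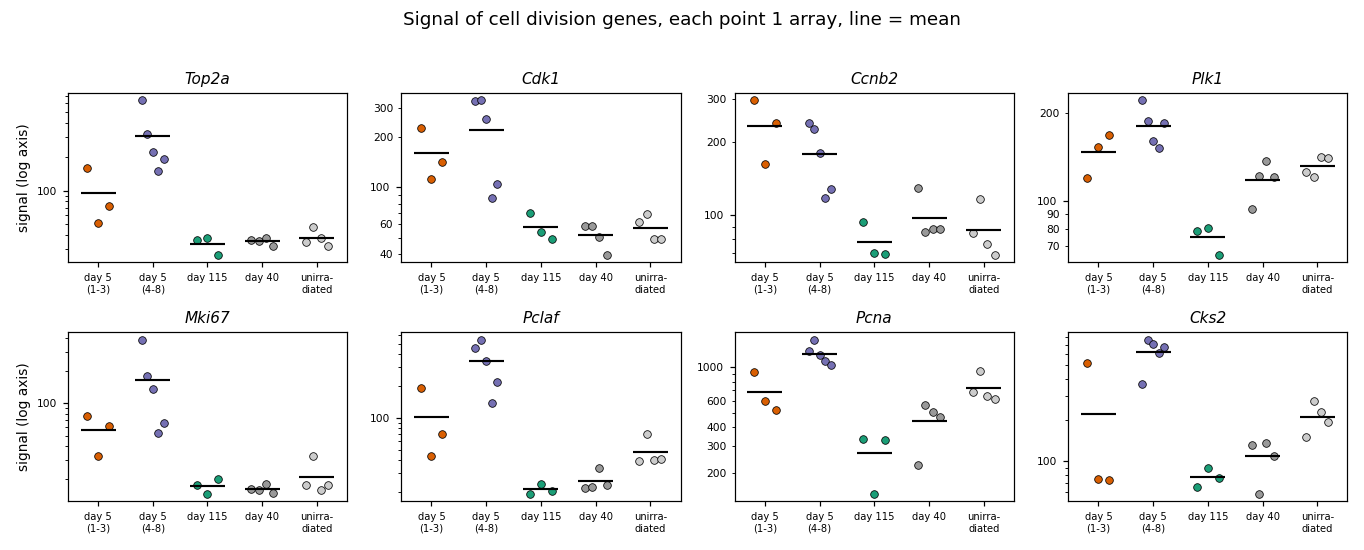
Signal of 8 cell division genes on a log axis, 1 point per array and a line at each group mean, for day-5 arrays 1 to 3, day-5 arrays 4 to 8, day 115, day 40 and unirradiated hosts. In all panels except Cks2 the 3 day-115 arrays lie below all 8 day-5 arrays, and day-5 arrays 2 and 3 lie closest to them for Cks2, Top2a and Pclaf.

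Of 33 tested DNA replication genes, 6 were lower and 1 higher against 8 arrays, and 4 were lower and 0 higher against arrays 1 to 3, with a median of -0.16 in both, so most of the list did not pass. As a mean over the list relative to unirradiated hosts, the day-115 arrays stood at 0.175, 0.268 and 0.1 and the day-5 arrays at 0.211 to 0.961, and the groups overlapped. After close pairs were averaged, 4 and 0 genes changed. Leaving out day-115 array 2 left 4 genes changed against 8 arrays and 2 against arrays 1 to 3, and leaving out day-115 array 1 left 4 against 8 arrays. The helicase subunit Mcm5 was not among the genes that changed, with 209, 382 and 192 at day 115 and 138 to 515 (median 227) at day 5. Cdc45, a partner of that helicase, differed by -0.30 ± 0.10 (adjusted p = 0.0444) and -0.44 ± 0.10 (adjusted p = 0.00821). Of 17 genes of nucleotide synthesis, 3 were lower against 8 arrays, which fell to 0 with close pairs averaged or without day-115 array 2, and 0 changed against arrays 1 to 3. Among 20 G1 cyclins, kinases and inhibitors, the anti-proliferative gene Tob1 was the 1 that changed, and it was lower, in both comparisons, at 41.1, 32.4 and 37.96 against 44.9 to 102 (median 87.1). Its difference was -0.81 ± 0.19 (adjusted p = 0.00953) and -0.85 ± 0.21 (adjusted p = 0.0143). The call of Cdc45 against 8 arrays was lost without day-5 array 1, 3, 4 or 5 or day-115 array 1, 2 or 3 (adjusted p up to 0.124). The call of Tob1 against 8 arrays was lost without day-115 array 2 (adjusted p up to 0.0558). The call of Tob1 against arrays 1 to 3 was lost without day-5 array 2 (adjusted p up to 0.0654). Cdc45 did not pass against 8 arrays with close pairs averaged (adjusted p = 0.0625). Cdc45 and Tob1 did not pass against arrays 1 to 3 with close pairs averaged (adjusted p = 0.0648 and 0.0763). Cdc45 did not pass against 8 arrays with only the arrays compared in the fit, without day-5 arrays 5 and 6 or without the intensity trend. Cdc45 did not pass against arrays 1 to 3 with only the arrays compared in the fit.

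The promoters of the cell division genes that fell are shown because most of them hold a sequence word that the choice of genes did not use. The CCAAT box, read by the factor NF-Y, is a known element of genes expressed in G2 and mitosis. Of the 23 mitosis and replication genes lower against 8 arrays, 18 matched by symbol to RefSeq promoters of build GRCm38.p6, and the 250 bases before the start site were searched on both strands. CCAAT or its complement ATTGG was found in 17 of the 18 (94.4%). It was found in 22 of 36 other tested genes of the same lists (61.1%), in 40.2% of 5148 tested genes with a promoter, and in 37.5% of all 27025 genes in the promoter table. The 23 lower genes were 17 of mitosis and 6 of replication, while of the 43 other genes 16 were of mitosis and the rest of replication. The 2 sets thus differ in make-up, and whether the word goes with the list or with the fall was not tested. The word TTTGAA or its complement TTCAAA, the core of the cell cycle homology region, was found in 8 of the 18 (44.4%) and 10 of the 36 others (27.8%). Its share was 13.1% of tested genes and 18.3% of all genes. The word GCGGGAA or its complement TTCCCGC, a form of the E2F site, was found in 2 of the 18 (11.1%) and 8 of the 36 (22.2%). Its share was 7.8% of tested genes and 4.4% of all genes. The 1 of the 18 without the word was Cdc6. The 5 promoters printed were picked from the genes described above and all hold the word, as do those of Plk1, with 1, and Mki67, with 3. They are given 5′ to 3′ on the gene's strand, with each CCAAT or ATTGG in capitals. They lie at chr10:69352913-69353162 (Cdk1, minus strand), chr9:70421555-70421804 (Ccnb2, minus strand), chr11:99024190-99024439 (Top2a, minus strand), chr9:65890073-65890322 (Pclaf, plus strand) and chr2:132253181-132253430 (Pcna, minus strand). The number of such words was 3 for Cdk1, 3 for Ccnb2, 6 for Top2a, 2 for Pclaf and 1 for Pcna.
Cdk1: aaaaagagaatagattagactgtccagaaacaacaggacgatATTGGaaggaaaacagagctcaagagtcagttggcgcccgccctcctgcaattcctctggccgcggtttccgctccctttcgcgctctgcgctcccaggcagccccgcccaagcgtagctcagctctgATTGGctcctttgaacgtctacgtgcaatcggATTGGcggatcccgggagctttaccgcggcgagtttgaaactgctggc
Ccnb2: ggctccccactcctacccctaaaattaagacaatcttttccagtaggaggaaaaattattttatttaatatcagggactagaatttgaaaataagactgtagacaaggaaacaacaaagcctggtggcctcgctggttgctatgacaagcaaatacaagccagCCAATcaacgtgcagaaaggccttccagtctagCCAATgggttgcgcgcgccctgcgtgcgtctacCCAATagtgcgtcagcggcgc
Top2a: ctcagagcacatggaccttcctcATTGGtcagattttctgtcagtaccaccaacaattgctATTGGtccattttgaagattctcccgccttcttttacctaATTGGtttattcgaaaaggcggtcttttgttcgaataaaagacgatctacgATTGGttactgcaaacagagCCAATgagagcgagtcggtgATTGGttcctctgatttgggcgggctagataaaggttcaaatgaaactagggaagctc
Pclaf: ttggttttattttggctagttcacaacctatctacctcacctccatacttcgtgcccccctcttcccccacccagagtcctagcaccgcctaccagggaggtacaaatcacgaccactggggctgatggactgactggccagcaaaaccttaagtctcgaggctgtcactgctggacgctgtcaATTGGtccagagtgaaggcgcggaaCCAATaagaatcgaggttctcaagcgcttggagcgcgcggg
Pcna: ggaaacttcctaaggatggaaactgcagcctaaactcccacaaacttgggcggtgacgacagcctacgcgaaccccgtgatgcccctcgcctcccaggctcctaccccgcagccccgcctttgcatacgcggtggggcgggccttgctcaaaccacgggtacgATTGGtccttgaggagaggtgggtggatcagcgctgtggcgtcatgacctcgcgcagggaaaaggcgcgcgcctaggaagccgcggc
A match is a description of these letters and shows neither binding nor its absence.

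Genes that mark memory CD8 T cells were higher at day 115. Of 23 tested memory markers, 12 were higher and 0 lower against all 8 day-5 arrays, with a median of 0.57, and 11 were higher and 1 lower against arrays 1 to 3, with a median of 0.34. Of 16 effector molecules, 7 and 6 were higher and 0 lower in the same order, with medians of 0.35 and 0.18. With close pairs averaged, 9 and 8 memory markers and 5 and 3 effector genes changed, all higher. The mean log2 level of the memory list relative to unirradiated hosts was 0.712 to 0.845 in the day-115 arrays and 0.041 to 0.314 in the day-5 arrays. The lists share Ccl5 and Fasl, and the lowest day-115 level lay above the highest day-5 level.

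Ccl5, a chemokine that memory CD8 T cells store, had signals of 1859.6, 2157 and 2311 at day 115, against 166, 249.6 and 612 in day-5 arrays 1 to 3 and 141 to 654 in arrays 4 to 8. It had the second largest rise among the genes named, at 2.60 ± 0.41 against 8 arrays (adjusted p = 0.00084) and 2.76 ± 0.49 against arrays 1 to 3 (adjusted p = 0.0025). The day-115 mean was 2109 ± 229.5 (SD, n = 3), and the day-5 mean 378 ± 197 (SD, n = 8). Fasl, the death ligand used by cytotoxic T cells, had signals of 91.8, 95.4 and 99.2 at day 115 and of 22.96 to 39.3 (median 28.00) at day 5. The day-115 values lay within a narrow band and above every day-5 value. The difference was 1.34 ± 0.10 (adjusted p = 1.78e-07) and 1.28 ± 0.11 (adjusted p = 4.8e-06).

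Gzmm, which encodes granzyme M, had signals of 159, 352 and 287 at day 115, against 35.1, 51.98 and 51.2 in arrays 1 to 3 and 25.8 to 31.7 in arrays 4 to 8. It rose by 2.41 ± 0.33 (adjusted p = 0.000307) and 2.13 ± 0.24 (adjusted p = 5.14e-05), and its day-40 signals spread from 61.7 to 345. Prf1, the gene of the pore protein perforin, rose by less, from 81.8 to 139 (median 92.5) at day 5 to 181, 143 and 181 at day 115, a difference of 0.70 ± 0.14 (adjusted p = 0.00434) and 0.55 ± 0.16 (adjusted p = 0.0296). The granzymes of acute effector cells did not pass. Gzmb had signals of 88.2, 83.8 and 101 at day 115 and of 66.6 to 426 (median 94.7) at day 5, where arrays 3 and 4 stood apart at 426 and 423 (adjusted p = 0.439 and 0.48). Gzma had signals of 49.02, 47.5 and 59.6 and 43.6 to 118 (median 52.8), with day-5 array 3 alone above 100 (adjusted p = 0.629 and 0.234). The call of Prf1 against arrays 1 to 3 was lost without day-5 array 1 or 2 or day-115 array 1 or 3 (adjusted p up to 0.0942). Prf1 did not pass against arrays 1 to 3 with close pairs averaged (adjusted p = 0.0979). Prf1 did not pass against arrays 1 to 3 with only the arrays compared in the fit.

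**Figure D2:**
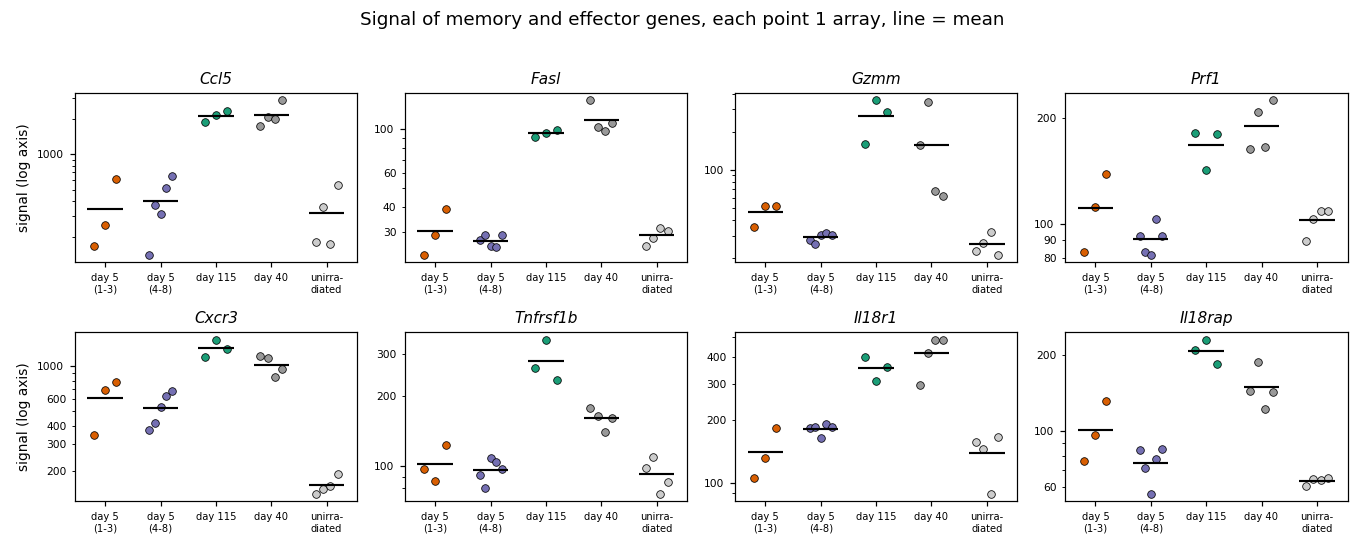
Signal of 8 memory and effector genes on a log axis, 1 point per array and a line at each group mean, grouped as in the plot of cell division genes. In every panel the 3 day-115 arrays lie above all 8 day-5 arrays, and the day-5 arrays of both sets overlap the unirradiated hosts for Ccl5, Fasl, Prf1 and Tnfrsf1b.

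Some receptors for cytokines and chemokines rose, while most members of those lists did not pass. Il18r1 and Il18rap encode the 2 chains of the interleukin-18 receptor, through which memory CD8 T cells can make interferon-gamma without antigen. Il18r1 had signals of 403, 309 and 360.2 at day 115 and 106 to 193 (median 183) at day 5, and Il18rap had 209, 230.2 and 184 and 56.6 to 131 (median 81.2). All day-115 values lay above all day-5 values for both. Il18r1 rose by 1.04 ± 0.20 (adjusted p = 0.00308) and 1.28 ± 0.20 (adjusted p = 0.00107), and Il18rap by 1.17 ± 0.16 (adjusted p = 0.000226) and 0.95 ± 0.16 (adjusted p = 0.00148). Tnfrsf1b, the gene of TNF receptor 2, rose from 80.5 to 123 (median 97.03) to 263, 347 and 232, by 1.37 ± 0.13 (adjusted p = 5.57e-06) and 1.33 ± 0.15 (adjusted p = 6.31e-05). Il18r1, Il18rap and Tnfrsf1b passed in both comparisons with close pairs averaged and with any 1 of the arrays left out. Il18rap did not pass against arrays 1 to 3 with only the arrays compared in the fit.

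Cxcr3, the chemokine receptor that leads T cells to interferon-induced ligands, had signals of 1159, 1506 and 1307 at day 115, against 348, 699 and 790.0 in arrays 1 to 3 and 373 to 679 in arrays 4 to 8. In unirradiated hosts it was 140.3 to 191, so day 5 already lay above that range and day 115 above day 5. The difference to day 5 was 1.27 ± 0.23 (adjusted p = 0.00196) and 1.17 ± 0.25 (adjusted p = 0.00784). Ccr2, a receptor for monocyte chemoattractant proteins, rose from 28.7 to 69.7 (median 43.5) to 124, 78.3 and 114, by 0.96 ± 0.19 (adjusted p = 0.0037) and 1.06 ± 0.23 (adjusted p = 0.0073). Itgb1, the beta-1 integrin chain that memory T cells carry at a high level, had signals of 2124, 1067 and 1813 at day 115, against 477, 388 and 425 in arrays 1 to 3 and 707 to 1197 in arrays 4 to 8. Day-115 array 2 overlapped the second set. Itgb1 rose by 1.16 ± 0.34 against 8 arrays (adjusted p = 0.0285), and by 1.86 ± 0.25 against arrays 1 to 3 (adjusted p = 0.000304). A dimmer probe set of Itgb1 passed in both, at 1.21 (adjusted p = 0.000816) and 1.45 (adjusted p = 0.000216). The integrin chain Itgae, which pairs with beta-7 to bind E-cadherin, went the other way, at 19.3, 25.2 and 23.8 against 34.2 to 69.1 (median 41.6). It fell by 0.63 ± 0.12 (adjusted p = 0.00315) and 0.85 ± 0.12 (adjusted p = 0.000322), and its unirradiated range was 58.3 to 76.5. The day-115 signals of Itgae lie below the filter level, so the size of its fall is not precise. The call of Itgb1 against 8 arrays was lost without day-115 array 1 or 3 (adjusted p up to 0.124). Itgb1 did not pass against 8 arrays with close pairs averaged (adjusted p = 0.0724). Itgb1 did not pass against 8 arrays with only the arrays compared in the fit or without day-5 arrays 5 and 6. Cxcr3 and Ccr2 did not pass against arrays 1 to 3 with only the arrays compared in the fit.

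Of 30 tested cytokine receptor and signalling genes, 8 were higher against 8 arrays and 6 against arrays 1 to 3, and 0 were lower in either, with 4 and 2 higher once close pairs were averaged. Against 8 arrays, 4 or 5 were higher without day-115 array 1 or 2 or any of day-5 arrays 4 to 8, and 3 were higher against arrays 1 to 3 without day-5 array 2. Il4ra, the interleukin-4 receptor chain, had signals of 760.3, 804 and 646 at day 115, against 411, 366 and 336 in arrays 1 to 3 and 191 to 227 in arrays 4 to 8. It rose by 1.45 ± 0.26 (adjusted p = 0.00211) and 0.96 ± 0.17 (adjusted p = 0.0022), whereas a dimmer probe set of the gene differed by -0.059 and passed in neither. Il7r, the receptor chain that resting T cells need for survival, had signals of 1772, 759 and 1452 at day 115, 561 to 1020.3 (median 754) at day 5 and 1511 to 2369 in unirradiated hosts. It passed against arrays 1 to 3, at 0.93 ± 0.28 (adjusted p = 0.0399), and not against 8 arrays (adjusted p = 0.093). Il2rb, which interleukin-2 and interleukin-15 share, had 73.9, 59.04 and 64.6 at day 115, above all day-5 values of 34.2 to 54.5 (median 47.4), but did not pass (adjusted p = 0.0675 and 0.14). Of 26 chemokine receptor and adhesion genes, 8 were higher and 2 lower against 8 arrays and 3 higher and 2 lower against arrays 1 to 3. The first total of 10 became 4 or 5 without any 1 of the day-115 arrays and 3 with close pairs averaged, and the second became 8 without day-115 array 3. The call of Il7r against arrays 1 to 3 was lost without day-5 array 1, 2 or 3 or day-115 array 1 or 3 (adjusted p up to 0.145). Il4ra and Il7r did not pass against arrays 1 to 3 with close pairs averaged (adjusted p = 0.0588 and 0.154). Il7r did not pass against arrays 1 to 3 with only the arrays compared in the fit or after quantile normalization.

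Among NK-type receptors, Klrk1, which encodes NKG2D, and Klrc1, which encodes NKG2A, were higher by small amounts at low signal. Klrk1 stood at 61.5, 88.6 and 78.3 against 43.5 to 58.9 (median 50.9), a difference of 0.46 ± 0.09 (adjusted p = 0.0045) and 0.35 ± 0.10 (adjusted p = 0.0303). Klrc1 stood at 47.9, 37.4 and 48.3 against 25.96 to 34.1 (median 30.6), a difference of 0.38 ± 0.08 (adjusted p = 0.00676) and 0.34 ± 0.10 (adjusted p = 0.0309). Cd160 was lower, at 58.3, 74.6 and 59.4 against 85.2 to 245 (median 103), with adjusted p values of 0.0396 and 0.00657. Of 9 tested genes of this list, 2 were higher and 2 lower against 8 arrays and 2 were higher and 1 lower against arrays 1 to 3. Once close pairs were averaged, 2 changed against 8 arrays and 1 against arrays 1 to 3. Without day-115 array 1 or 3 or day-5 array 5, 2 changed against 8 arrays, and without day-115 array 3 or day-5 array 2 or 3, 1 changed against arrays 1 to 3. The call of Klrk1 against arrays 1 to 3 was lost without day-5 array 1, 2 or 3 or day-115 array 2 or 3 (adjusted p up to 0.107). The call of Klrc1 against arrays 1 to 3 was lost without day-5 array 1, 2 or 3 or day-115 array 1 or 3 (adjusted p up to 0.0912). The call of Cd160 against 8 arrays was lost without day-5 array 5 or day-115 array 1, 2 or 3 (adjusted p up to 0.118). Cd160 did not pass against 8 arrays with close pairs averaged (adjusted p = 0.0559). Klrk1 and Klrc1 did not pass against arrays 1 to 3 with close pairs averaged (adjusted p = 0.153 and 0.138). Cd160 did not pass against 8 arrays with only the arrays compared in the fit, without day-5 arrays 5 and 6 or with a pseudocount of 64. Klrk1, Klrc1 and Cd160 did not pass against arrays 1 to 3 with only the arrays compared in the fit.

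The naive and quiescence list did not move in 1 direction. Of 28 tested genes, 2 were higher and 4 lower against 8 arrays, and 3 higher and 4 lower against arrays 1 to 3. Counted with close pairs averaged, 3 and 1 changed. Without day-115 array 2 the total against 8 arrays was 2 and without day-5 array 1 it was 10, and without day-5 array 2 or 3 the total against arrays 1 to 3 was 2 and 3. Txnip, which restrains glucose uptake in resting cells, had signals of 1005, 1472 and 937 against 340.3 to 740.0 (median 500.4), a rise of 1.12 ± 0.26 (adjusted p = 0.00921) and 1.29 ± 0.27 (adjusted p = 0.00652), but its dimmer probe set differed by -0.16 and passed in neither. Slfn2, needed for quiescence of T cells, rose from 576 to 1449 (median 844) to 2213, 3995 and 1603, by 1.36 ± 0.32 (adjusted p = 0.00999) and 0.84 ± 0.25 (adjusted p = 0.0345). The transcription factor gene Ets1 was lower by its brightest probe set, at 78.1, 27.3 and 63.5 against 114 to 318 (median 158) (adjusted p = 0.021 and 0.0445), and a dimmer probe set differed by 0.26 and passed in neither. Lef1, Klf2, S1pr1 and Ccr7, which keep naive T cells in circulation or mark them, did not pass in either comparison, and of these Klf2 had 391, 382 and 406 at day 115 and 195 to 403 (median 303) at day 5. Bcl2, a survival gene, and Eomes, a memory transcription factor, also did not pass, with adjusted p values of 0.428 and 0.515 and of 0.809 and 0.477. The call of Txnip against 8 arrays was lost without day-115 array 2 (adjusted p up to 0.0681). The call of Slfn2 against 8 arrays was lost without day-115 array 2 (adjusted p up to 0.0872). The call of Slfn2 against arrays 1 to 3 was lost without day-5 array 1, 2 or 3 or day-115 array 1 or 2 (adjusted p up to 0.14). The call of Ets1 against 8 arrays was lost without day-115 array 2 (adjusted p up to 0.14). The call of Ets1 against arrays 1 to 3 was lost without day-5 array 1, 2 or 3 or day-115 array 2 (adjusted p up to 0.167). Txnip and Ets1 did not pass against 8 arrays with close pairs averaged (adjusted p = 0.0533 and 0.0607). Txnip, Slfn2 and Ets1 did not pass against arrays 1 to 3 with close pairs averaged (adjusted p = 0.103, 0.178 and 0.187). Ets1 did not pass against 8 arrays without day-5 arrays 5 and 6 or with an array cluster term. Txnip, Slfn2 and Ets1 did not pass against arrays 1 to 3 with only the arrays compared in the fit. Ets1 did not pass against arrays 1 to 3 with an additive cluster term, with a pseudocount of 64 or without the intensity trend.

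**Figure D3:**
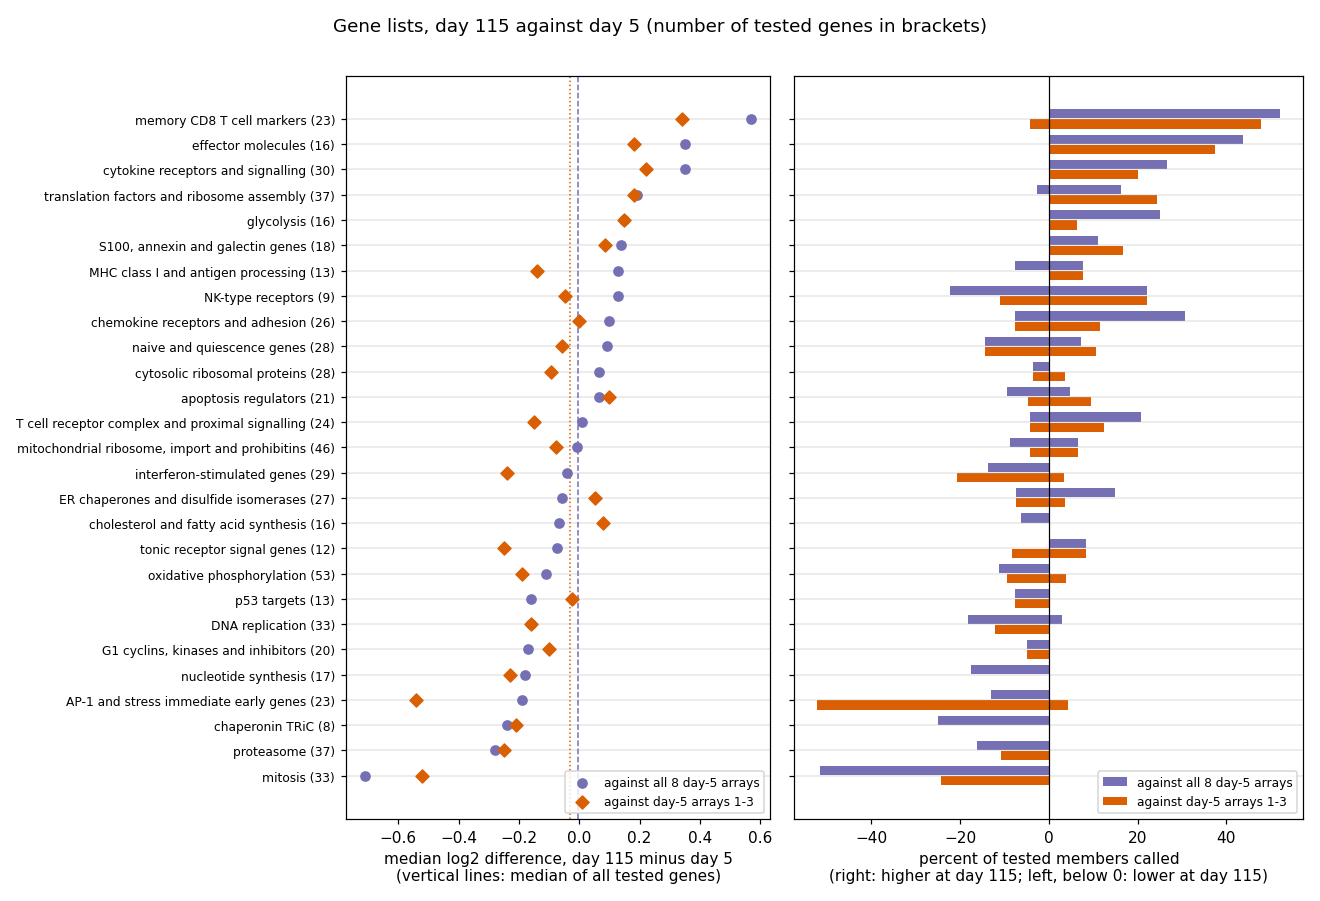
Left, median log2 difference (day 115 minus day 5) of the tested genes of each list other than the cell type markers and sex-linked genes, circles against all 8 day-5 arrays and diamonds against arrays 1 to 3, with vertical lines at the medians of all tested genes. Right, percent of tested members called higher (right of 0) or lower (left of 0). Among the lists plotted, the memory list has the highest median (0.57 and 0.34) and the mitosis list the lowest against 8 arrays (-0.71), while the immediate early list is the lowest against arrays 1 to 3 (-0.54).

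Some subunits of the proteasome and of the respiratory chain fell, while most members of both lists did not pass. In either direction, 13.9% of all tested genes changed against 8 arrays and 12.7% against arrays 1 to 3. The totals called in both lists lay near or under these shares. Lower genes alone were 5.24% and 6.19% of all tested genes, and the lower counts of both lists lay above that. Of 37 proteasome genes, 6 were lower against 8 arrays and 4 against arrays 1 to 3, and 0 were higher, with medians of -0.28 and -0.25. With close pairs averaged, 3 and 0 changed. Against 8 arrays, 3 changed without day-115 array 2 or 3 or day-5 array 5 or 6, and 11 without day-5 array 1. Psmc6, an ATPase of the proteasome cap, had signals of 213, 159.5 and 136 at day 115, against 395, 395 and 369.6 in arrays 1 to 3 and 1029 to 1336 in arrays 4 to 8. It fell by 2.14 ± 0.48 (adjusted p = 0.00803) and 1.14 ± 0.26 (adjusted p = 0.00911). All 3 sets were apart, with arrays 1 to 3 between. Psma1, a subunit of the core ring, fell from 163 to 371 (median 283) to 120.0, 89.8 and 111, by 1.23 ± 0.21 (adjusted p = 0.00168) and 0.89 ± 0.21 (adjusted p = 0.0123). Of 53 genes of oxidative phosphorylation, 6 were lower and 0 higher against 8 arrays, and 5 lower and 2 higher against arrays 1 to 3, with 3 and 0 changed once close pairs were averaged. Against 8 arrays, 2 changed without day-115 array 2 and 10 or 11 without day-5 array 1, 2 or 3, and against arrays 1 to 3, 4 changed without day-5 array 2 or 3. Cox6c, a subunit of cytochrome c oxidase, had 943, 389 and 900.5 at day 115 and 1381 to 3045 (median 2132) at day 5, and fell by 1.58 ± 0.27 (adjusted p = 0.00168) and 1.19 ± 0.27 (adjusted p = 0.00982). Of its dimmer probe sets, one differed by 0.23 and passed in neither, and one was lower against 8 arrays. Cox7b, of the same complex, fell from 221 to 541 (median 380.1) to 164, 154 and 181, by 1.08 ± 0.26 (adjusted p = 0.0104) and 1.27 ± 0.26 (adjusted p = 0.00535). The call of Cox7b against 8 arrays was lost without day-115 array 2 (adjusted p up to 0.052). Cox7b did not pass against 8 arrays with close pairs averaged (adjusted p = 0.0526). Psmc6, Psma1, Cox6c and Cox7b did not pass against arrays 1 to 3 with close pairs averaged (adjusted p = 0.105, 0.0662, 0.093 and 0.0565). Psma1 and Cox6c did not pass against arrays 1 to 3 with only the arrays compared in the fit.

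The translation genes Eef2 and Eef1d and the glycolysis gene Pfkp rose, while most members of their lists did not pass. Of 37 translation factor and ribosome assembly genes, 6 were higher and 1 lower against 8 arrays and 9 higher and 0 lower against arrays 1 to 3. When close pairs were averaged, 2 and 0 changed. Against 8 arrays, 3 changed without day-115 array 2 and 11 without day-5 array 3, and against arrays 1 to 3, 4 and 3 changed without day-5 array 2 or 3. Eef2, the elongation factor that moves the ribosome along, had signals of 2499, 3390.0 and 2012 at day 115 and 977 to 1363 (median 1327) at day 5, and rose by 1.10 ± 0.20 (adjusted p = 0.00234) and 1.09 ± 0.23 (adjusted p = 0.00671). Eef1d, a part of elongation factor 1, rose from 326 to 528 (median 367) to 1125, 746 and 1082, by 1.26 ± 0.29 (adjusted p = 0.00926) and 1.12 ± 0.25 (adjusted p = 0.01). Pfkp, a phosphofructokinase of glycolysis, rose from 160.4 to 267 (median 195) to 431, 522 and 345, by 1.06 ± 0.17 (adjusted p = 0.00093) and 1.07 ± 0.20 (adjusted p = 0.00331), and a second probe set of it passed in both. Of 16 glycolysis genes, 4 were higher against 8 arrays and 1 against arrays 1 to 3, and with close pairs averaged the counts were 1 and 0. Without day-115 array 2, 1 was higher against 8 arrays, and without day-115 array 3, 4 were higher against arrays 1 to 3. The 28 cytosolic ribosomal protein genes had 0 higher and 1 lower against 8 arrays, and 1 higher and 1 lower against arrays 1 to 3. The call of Eef1d against arrays 1 to 3 was lost without day-5 array 3 (adjusted p up to 0.0519). Eef2, Eef1d and Pfkp did not pass against arrays 1 to 3 with close pairs averaged (adjusted p = 0.0812, 0.0865 and 0.0557). Eef2 did not pass against arrays 1 to 3 with only the arrays compared in the fit.

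A few interferon-stimulated genes were lower at day 115. Of 29 tested, 4 were lower and 0 higher against 8 arrays, and 6 lower and 1 higher against arrays 1 to 3, with 2 and 2 changed once close pairs were averaged. Against 8 arrays, 2 changed without day-115 array 3 and 7 or 8 without day-5 array 1 or 3, and against arrays 1 to 3, 4 and 3 changed without day-5 array 2 or 3. Isg15, a ubiquitin-like protein induced by type I interferon, had signals of 94.3, 65.95 and 94.1 at day 115 and 134 to 234 (median 162) at day 5, below every day-5 array and below the unirradiated range of 133 to 165. It fell by 0.92 ± 0.16 (adjusted p = 0.00194) and 1.00 ± 0.19 (adjusted p = 0.0041). Ifi47, a GTPase induced by interferon-gamma, fell from 813 to 1301 (median 969) to 482, 396 and 353, by 1.24 ± 0.21 (adjusted p = 0.00154) and 1.05 ± 0.19 (adjusted p = 0.00257). The medians of the list were -0.042 and -0.24. Ifi47 did not pass against arrays 1 to 3 with close pairs averaged (adjusted p = 0.0638).

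Immediate early genes, which cells switch on within minutes of stimulation or handling, were lower at day 115 than in day-5 arrays 1 to 3, and few passed against the whole group. Of 23 tested AP-1 and stress genes, 12 were lower and 1 higher against arrays 1 to 3, with a median of -0.54. Against 8 arrays, 3 were lower and 0 higher, with a median of -0.19, and against arrays 4 to 8 alone the median was 0.01. Without day-5 array 2, 7 genes changed against arrays 1 to 3, and with close pairs averaged 4 changed. Against 8 arrays, 0 changed without day-115 array 2 or 3. Fos, a subunit of AP-1, had signals of 274, 907 and 146 in day-5 arrays 1 to 3, of 14.8 to 28.3 in arrays 4 to 8 and of 13.8, 13.8 and 16.6 at day 115. Array 2 was the highest and the day-115 arrays lay with arrays 4 to 8. The difference was -3.52 ± 0.52 against arrays 1 to 3 (adjusted p = 0.000626) and -1.44 ± 0.83 against 8 arrays (adjusted p = 0.241), and since its day-115 signals lie below the filter level and near the floor of the arrays, the size of the fall is not precise. Dusp1, a phosphatase of the same early response, had 99.6, 253 and 92.1 in arrays 1 to 3, 31.01 to 39.3 in arrays 4 to 8 and 28.6, 23.3 and 26.1 at day 115, with adjusted p values of 6.31e-05 and 0.106. Ddit4, a stress gene that restrains mTOR, had the largest fall by the naming rule. Its signals were 181, 78.5 and 138 at day 115, 489, 243 and 199.9 in arrays 1 to 3 and 1179 to 2602 in arrays 4 to 8. The difference of -2.75 ± 0.74 against 8 arrays (adjusted p = 0.0205) became -1.10 ± 0.34 against arrays 1 to 3 (adjusted p = 0.0413). The call of Ddit4 against 8 arrays was lost without day-115 array 2 or 3 (adjusted p up to 0.0972). The call of Ddit4 against arrays 1 to 3 was lost without day-5 array 1 or 2 or day-115 array 2 or 3 (adjusted p up to 0.154). Ddit4 did not pass against arrays 1 to 3 with close pairs averaged (adjusted p = 0.109). Ddit4 did not pass against 8 arrays without day-5 arrays 5 and 6. Ddit4 did not pass against arrays 1 to 3 with only the arrays compared in the fit or with a pseudocount of 64.

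Some transcripts of plasma cells, B cells and liver were also higher in day-115 arrays, several of them in 1 or 2 of the 3 arrays more than in the rest. Igkv6-23, an immunoglobulin light chain segment, was the largest rise by the naming rule, with 1144, 369.7 and 376 at day 115 against 32.3 to 135 (median 58.1) at day 5. The difference was 2.83 ± 0.35 (adjusted p = 0.000103) and 2.79 ± 0.43 (adjusted p = 0.000876). The name of the Igkv6-23 probe set marks it as shared by related sequences, so its signal need not come from this segment alone. Jchain, the antibody joining chain, had 141, 47.2 and 74.04 against 22.3 to 43.01 (median 37.99), again with array 1 the highest. Of 7 tested plasma cell genes, 3 were higher in each comparison: Igkv6-23, Jchain and Txndc5. Igkv6-23 and Txndc5 were also named by the rule of largest rises. Over the 7 genes, 6 differences were positive and 1 negative against 8 arrays, and 4 positive and 3 negative against arrays 1 to 3. The 8 plasma cell genes on the array, tested or not, had a summed signal of 1391.3 to 2399.5 at day 115. It was 450.4 to 654.5 in day-5 arrays 1 to 3 and 387.7 to 405.8 in arrays 4 to 8. Txndc5, a disulfide isomerase abundant in plasma cells, made up much of that sum, with 792, 1049.5 and 739 at day 115 and 87.5 to 267 (median 124) at day 5. It rose by 2.48 ± 0.35 (adjusted p = 0.000328) and 1.93 ± 0.22 (adjusted p = 5.89e-05), and its order over the 3 day-115 arrays was not that of Igkv6-23. Of 13 B cell genes, 5 were higher against 8 arrays and 1, Blk, against arrays 1 to 3, and without day-115 array 1 the first count was 0. With close pairs averaged the counts were 3 and 0, and without day-115 array 3, 4 were higher against arrays 1 to 3. H2-Aa, an MHC class II chain of B cells and other presenting cells, had 786, 263 and 243 at day 115, 149, 268 and 173 in arrays 1 to 3 and 58.9 to 80.04 in arrays 4 to 8. The summed signal of the 16 B cell genes on the array, tested or not, was 3220.6 to 5137.2 at day 115. It was 2656.1 to 3450.1 in day-5 arrays 1 to 3 and 1668.8 to 1805.1 in arrays 4 to 8.

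**Figure D4:**
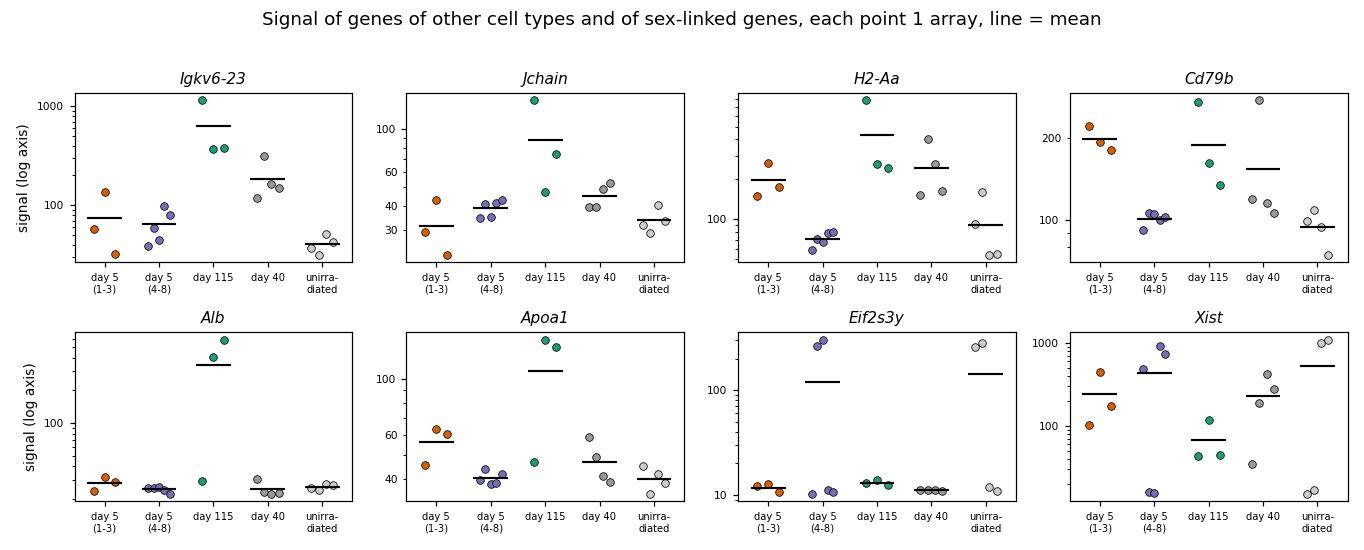
Signal of genes of plasma cells (Igkv6-23, Jchain), B cells (H2-Aa, Cd79b) and liver (Alb, Apoa1) and of the Y-linked gene Eif2s3y and the X-inactivation gene Xist on a log axis, 1 point per array with a line at each group mean. Day-115 array 1 has the highest Igkv6-23, Jchain and H2-Aa signal, day-115 arrays 2 and 3 have Alb signals of 408 and 587, and day-5 arrays 5 and 6 stand apart for Eif2s3y and Xist.

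Liver transcripts showed another order of the day-115 arrays. Alb, the gene of serum albumin, had signals of 29.4, 408 and 587, so that arrays 2 and 3 stood far above array 1 and above all day-5 values of 22.4 to 32.03 (median 25.3). Mup5, a major urinary protein made by liver and named by the rule of largest rises, had 46.2, 102 and 215 against 26.6 to 34.02 (median 29.4), and rose by 1.37 ± 0.22 (adjusted p = 0.000862) and 1.32 ± 0.27 (adjusted p = 0.00544). Its probe set, too, has a name that marks it as shared by related sequences. The 6 liver genes on the array, tested or not, had a summed signal of 240.1 to 967.6 at day 115 and 200.2 to 250.9 at day 5. Of 4 tested liver genes, 3 were higher against 8 arrays and 2 against arrays 1 to 3. Once close pairs were averaged, 3 and 0 of them passed, and without day-115 array 2 or 3 or day-5 array 2 or 3, 1 passed against arrays 1 to 3. In bulk samples such as these, more cells of a type and more RNA per cell cannot be told apart, and the part of plasma, B and liver cells in other rises at day 115 was not tested. The day-115 signals of Ccl5, Fasl, Cxcr3, Il18r1 and Il18rap given above lay closer together than those of Alb and Igkv6-23. Gzmm, also given above, spread more widely than Ccl5, Fasl, Cxcr3, Il18r1 and Il18rap, with array 1 the lowest, as for Alb. Over the 3 arrays, Ccl5 and Fasl had the order of Alb, Il18r1 had that of Igkv6-23, and Cxcr3 and Il18rap had neither. These genes were picked, and what their spreads and orders reflect was not tested. H2-Q10, a class I molecule that liver secretes, had 129, 232 and 143 at day 115 and 41.98 to 62.98 (median 52.02) at day 5, and was already 93.1 to 190.5 at day 40, where Alb was 22.4 to 30.9. It rose by 1.39 ± 0.17 (adjusted p = 6.54e-05) and 1.29 ± 0.18 (adjusted p = 0.000322), on a probe set whose name marks it as shared by related sequences. Mup5 did not pass against arrays 1 to 3 with close pairs averaged (adjusted p = 0.0765). Mup5 did not pass against arrays 1 to 3 with only the arrays compared in the fit.

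Genes outside these groups that the naming rule selected rose as well. Prss12, a serine protease described in neurons, had signals of 198, 185 and 152 at day 115 and 44.99 to 59.5 (median 53.1) at day 5, with 102 to 138 at day 40 and 53.6 to 59.8 in unirradiated hosts. It rose by 1.5 ± 0.10 (adjusted p = 5.81e-08) and 1.46 ± 0.12 (adjusted p = 2.57e-06). Ifitm10, a member of the interferon-induced transmembrane family, rose from 218 to 444 (median 259.9) to 986, 1675 and 1228, by 2.04 ± 0.26 (adjusted p = 0.000122) and 1.63 ± 0.17 (adjusted p = 2.28e-05). Within day 5, arrays 1 to 3 of Ifitm10 stood at 339, 444 and 421, above the 218 to 261 of arrays 4 to 8. Nbeal2, a protein of granule formation in platelets, showed the same order within day 5 and 535, 1099 and 545 at day 115 (adjusted p = 0.00894 and 0.0103). In the T cell receptor list, Txk, a kinase of the Tec family, rose from 595 to 1115 (median 706) to 1585, 1507 and 1301 (adjusted p = 0.017 and 0.00269), and a dimmer probe set of it differed by -0.008. Thy1, a surface protein of all mouse T cells, rose from 864 to 1419 (median 1243) to 2295, 1886 and 2124, by 0.80 ± 0.20 (adjusted p = 0.0149) and 0.95 ± 0.18 (adjusted p = 0.00388). The call of Nbeal2 against 8 arrays was lost without day-115 array 2 (adjusted p up to 0.0716). The call of Txk against 8 arrays was lost without day-115 array 1 or 2 (adjusted p up to 0.0675). The call of Thy1 against 8 arrays was lost without day-115 array 1 (adjusted p up to 0.0632). Txk and Thy1 did not pass against 8 arrays with close pairs averaged (adjusted p = 0.0539 and 0.0539). Nbeal2 and Thy1 did not pass against arrays 1 to 3 with close pairs averaged (adjusted p = 0.093 and 0.0756). Nbeal2 and Thy1 did not pass against arrays 1 to 3 with only the arrays compared in the fit.

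The other genes with the largest falls by the naming rule were Zfp207, Srsf3, Eif1ax, Golph3 and Cmip. Zfp207, a zinc finger protein that binds microtubules and the kinetochore, had 113, 95.5 and 109.8 at day 115, 241, 195 and 201 in arrays 1 to 3 and 397 to 567 in arrays 4 to 8. It fell by 1.58 ± 0.30 (adjusted p = 0.003) and 0.90 ± 0.16 (adjusted p = 0.00276), with no call lost when 1 array was left out. Srsf3, a splicing factor, had 179.9, 153 and 92.9, 241, 296 and 236 and 608 to 916 in the same order, and Eif1ax, an initiation factor, had 99.5, 92.2 and 42.9, 252, 152 and 145 and 301 to 504. Against arrays 1 to 3 their differences were -0.83 ± 0.23 (adjusted p = 0.0277) and -1.10 ± 0.30 (adjusted p = 0.024). Golph3, of the Golgi membrane, and Cmip, an adaptor of T cell signalling, differed by -0.63 ± 0.19 (adjusted p = 0.0372) and -0.89 ± 0.29 (adjusted p = 0.0497) against arrays 1 to 3, and a second probe set of Eif1ax and of Cmip did not pass against 8 arrays. The call of Srsf3 against arrays 1 to 3 was lost without day-5 array 2 or 3 or day-115 array 3 (adjusted p up to 0.116). The call of Eif1ax against arrays 1 to 3 was lost without day-5 array 1 or 2 or day-115 array 3 (adjusted p up to 0.0822). The call of Golph3 against arrays 1 to 3 was lost without day-5 array 1, 2 or 3 or day-115 array 2 (adjusted p up to 0.132). The call of Cmip against arrays 1 to 3 was lost without day-5 array 2 or 3 or day-115 array 1, 2 or 3 (adjusted p up to 0.191). Srsf3, Eif1ax, Golph3 and Cmip did not pass against arrays 1 to 3 with close pairs averaged (adjusted p = 0.167, 0.123, 0.165 and 0.226). Srsf3, Eif1ax, Golph3 and Cmip did not pass against arrays 1 to 3 with only the arrays compared in the fit. Golph3 and Cmip did not pass against arrays 1 to 3 with a pseudocount of 64. Cmip did not pass against arrays 1 to 3 without the intensity trend or without the filter.

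For a further set of genes the choice of day-5 arrays decided the result. They changed against all 8 arrays, while their unadjusted p against arrays 1 to 3 was above 0.05, a rule that met 164 of 6409 genes. Cks2, a partner of cyclin-dependent kinases, had 64.7, 90.02 and 75.6 at day 115, 520.5, 74.00 and 73.4 in arrays 1 to 3 and 366 to 767 in arrays 4 to 8. Day-5 arrays 2 and 3 lay among the day-115 arrays and array 1 with arrays 4 to 8. The difference was -2.03 ± 0.58 against 8 arrays (adjusted p = 0.0261) and -0.82 ± 0.48 against arrays 1 to 3 (adjusted p = 0.266). Set, a histone chaperone, had 289, 158 and 287, 399, 327 and 243 and 1089 to 1649.9 in the same order, and Ube2e1, a ubiquitin-conjugating enzyme, had 42.6, 23.2 and 30.6, 59.1, 47.2 and 42.1 and 217 to 274. For both, arrays 1 to 3 overlapped day 115 and arrays 4 to 8 lay far above, with adjusted p values of 0.0496 and 0.0391 against 8 arrays and of 0.247 and 0.2 against arrays 1 to 3. In the other direction, Anapc5, a subunit of the anaphase-promoting complex, had 1278, 2199 and 1339, 1144, 1162 and 1113 and 409 to 781, and Coro1b, an actin-binding protein, had 431, 659 and 408, 454, 382 and 389 and 112 to 175. Their adjusted p values were 0.0252 and 0.0445 against 8 arrays, and 0.207 and 0.391 against arrays 1 to 3. Ccnd2, the D-type cyclin that growth signals induce, was split within day 5, with 294, 263 and 200.2 in arrays 1 to 3 and 1019.7 to 1584 in arrays 4 to 8. Its day-115 signals of 229.5, 267 and 186 lay with arrays 1 to 3, and it passed in neither comparison (adjusted p = 0.0814 and 0.66). The call of Cks2 against 8 arrays was lost without day-115 array 1, 2 or 3 (adjusted p up to 0.0827). The call of Set against 8 arrays was lost without day-5 array 4, 5, 6, 7 or 8 or day-115 array 1, 2 or 3 (adjusted p up to 0.191). The call of Ube2e1 against 8 arrays was lost without day-5 array 4, 5, 6, 7 or 8 or day-115 array 1, 2 or 3 (adjusted p up to 0.141). The call of Anapc5 against 8 arrays was lost without day-115 array 2 (adjusted p up to 0.147). The call of Coro1b against 8 arrays was lost without day-5 array 4, 5, 6, 7 or 8 or day-115 array 1, 2 or 3 (adjusted p up to 0.188). Set, Ube2e1, Anapc5 and Coro1b did not pass against 8 arrays with close pairs averaged (adjusted p = 0.0909, 0.0781, 0.0781 and 0.11). Cks2, Set, Ube2e1, Anapc5 and Coro1b did not pass against 8 arrays with only the arrays compared in the fit, without day-5 arrays 5 and 6 or with an array cluster term. Set did not pass against 8 arrays with a pseudocount of 64 or without the intensity trend.

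Genes that are often used to describe homeostatic proliferation were followed as a panel of 39, of which 5 had no probe set of their own and 4 lay under the filter. Of the 30 tested, 8 were higher and 5 lower against 8 arrays, and 9 higher and 4 lower against arrays 1 to 3. With close pairs averaged, 11 and 8 changed. Cd44, the adhesion receptor that marks activated and memory T cells, lay under the filter at 19.6, 38.5 and 35.3 at day 115 and 14.1 to 26.1 (median 16.2) at day 5. Ifng, the gene of interferon-gamma, lay under it as well, at 12.3, 13.3 and 17.3 and 10.4 to 21.6 (median 11.7). No test was made for either.

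Most members of the other lists did not pass in either comparison. Over all tested genes, 13.9% changed against 8 arrays and 12.7% against arrays 1 to 3. Against 8 arrays, the T cell receptor, endoplasmic reticulum and chaperonin lists lay furthest above that share. Against 8 arrays and against arrays 1 to 3 in that order, 3 and 3 of 46 genes of the mitochondrial ribosome and import were higher and 4 and 2 lower. Of 24 genes of the T cell receptor complex and its proximal signalling, 5 and 3 were higher and 1 and 1 lower. Of 27 chaperones and disulfide isomerases of the endoplasmic reticulum, 4 and 1 were higher and 2 and 2 lower. Of 18 S100, annexin and galectin genes, which memory T cells often express at a high level, 2 and 3 were higher and 0 lower. Of 21 apoptosis regulators, 1 and 2 were higher and 2 and 1 lower. Of 13 MHC class I and antigen processing genes, 1 and 1 were higher and 1 and 0 lower, and of 13 p53 targets 0 were higher and 1 and 1 lower. Of 12 genes of tonic receptor signals, 1 and 1 were higher and 0 and 1 lower. The 8 chaperonin subunits gave 2 lower against 8 arrays and 0 against arrays 1 to 3, and 16 genes of cholesterol and fatty acid synthesis gave 1 and 0 lower, with 0 higher in both lists. After close pairs were averaged, each of these lists had at most 2 genes changed in either comparison.

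Among markers of other cells that a sort of CD8 T cells could hold, 0 of 9 myeloid genes changed against 8 arrays and 1 was lower against arrays 1 to 3. The summed signal of the 13 myeloid genes on the array, tested or not, was 1211.1 to 1982.2 at day 115. It was 1774.1 to 1841.4 in day-5 arrays 1 to 3 and 2965.9 to 3282 in arrays 4 to 8. Of 8 neutrophil genes, 1 and 2 were lower, and of 6 erythroid genes 0 changed in both, with summed erythroid signals of 571.1 to 1384.4 at day 115 and 315.7 to 2793.9 at day 5. Of 2 tested genes of CD4 and regulatory T cells, 0 changed against 8 arrays and 1 was lower against arrays 1 to 3, and of 2 NK cell genes 0 changed. The 7 genes of CD8 T cell identity had 2 higher and 0 lower against 8 arrays and 1 higher and 1 lower against arrays 1 to 3, with summed signals of 10303.2 to 12564.8 at day 115 and 9163.9 to 14456.8 at day 5.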

How the data were processed

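Messenger RNA was measured in 19 samples on 1-colour oligonucleotide arrays of 12488 probe sets. The authors deposited 1 table of linear signal intensity, from 7.68 to 13242.28. Their scanner settings, scaling and software are not given in the sources used here. Array medians were 49.6 to 53.7, so no further normalization was applied. Read depth has no counterpart on arrays, and the number of arrays limits the precision.

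Probe sets were named from GEO's platform annotation: 10833 had 1 symbol, 396 several, 1193 none listed there, and 66 controls were left out. Tests used limma 3.58.1 in R 4.3.3 on log2(signal + 16), two-sided, with an intensity trend and all 19 arrays for the spread. They covered 8695 probe sets whose mean signal exceeded the 30th percentile (26.4). One model had a mean per group. The other had a mean per group and array cluster and gave the comparison with day-5 arrays 1 to 3. The Benjamini-Hochberg threshold was 0.05. The scripts were tested on simulated data. A gene counts by its brightest probe set with 1 symbol. Some of these probe sets have names that mark them as shared by related sequences, among them those of Plk1, Cox6c, Itgb1, Srsf3 and Ube2e1.

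The members and the gene lists were chosen with earlier results of these data known. The rule named 98 genes: the 10 largest rises and 10 largest falls among genes called in both comparisons with no overlap between day 115 and the 8 day-5 arrays (221 and 115 candidates), the 5 largest rises and 5 largest falls called against 8 arrays with an unadjusted p above 0.05 against arrays 1 to 3 (164 candidates), up to 3 members per list called in both comparisons, and a panel of 39 genes. Fos, Dusp1, H2-Aa, Eif2s3y, Mcm5 and other genes named in the text outside this rule were picked after their values were seen. Alternatives were other pseudocounts, filters and normalization, no trend, only the arrays compared, a replicate block, an array cluster term and leaving out each array. Averaging close pairs and leaving out the arrays with a high Eif2s3y signal were added after seeing the data.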

Additional observations from a re-analysis of the deposited data

Results flagged for a closer look

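In 11 of 98 named genes, 1 of the 8 day-5 arrays stood apart from the other 7 by Dixon's criterion at 95%, and in all 11 that array was the highest. Chance flags about 1 in 20 groups when the values come from 1 normally distributed group. The criterion was applied to linear signals, a scale that stretches high values, and the day-5 arrays did not form 1 uniform group. That rate therefore need not hold here, and whether the 11 flags exceed chance was not tested. No gene was tested in this way at day 115, which has 3 arrays.

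Day-5 array 4 stood apart for genes of division, with a Top2a signal of 635 against 322 in the next array and an Mki67 signal of 386 against 179. The same array was the highest for Ets1, at 318 against 203. Day-5 array 3 stood apart for cytotoxic genes, with a Gzma signal of 118 against 62.5, a Fasl signal of 39.3 against 28.9 and a Cd160 signal of 245 against 119. Day-5 array 1 was the highest for Glipr2 at 1680.1 against 884, for Lef1 at 713 against 427, for Timm44 at 309 against 172 and for Mrpl2 at 118 against 76.6. Day-5 array 2 was the highest for the B cell kinase gene Blk, at 41.0 against 32.4. What set these arrays apart was not tested.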

How the results depend on the processing

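Against all 8 day-5 arrays 1205 probe sets changed, 59.4% of them higher. The count was 1865 with no filter (69.9% higher), 658 with only the arrays compared in the fit, 3893 against day-5 arrays 4 to 8 alone, 490 with close pairs averaged and 696 without the day-5 arrays of high Eif2s3y signal. Leaving out 1 array gave 589 to 1653, with 812, 589 and 896 without day-115 arrays 1, 2 and 3, and 991, 849, 989, 903 and 870.0 without day-5 arrays 4 to 8. Against day-5 arrays 1 to 3, 1130 changed, 46.7% of them higher. The count was 130 with only the arrays compared (64.6% higher) and 90 with close pairs averaged (73.3% higher), and leaving out 1 array gave 335 to 1543, with 335 and 433 without day-5 arrays 2 and 3. Pseudocounts of 1 and 64, a filter at the 50th percentile, quantile normalization, no trend and an array cluster term kept both counts within 1.5 times. Equal counts do not mean equal genes: with the cluster term 1246 changed, 50.5% of them higher, of which 671 were among the 1205, and 13 named calls were lost. No difference of a named gene that was called changed its sign under any alternative run. The cause of these shifts was not tested. Dim genes such as Pclaf, Mki67, Fos and Itgae had day-115 signals below 26.4, the filter level, so the size of their fall is limited by the floor of the arrays.

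Same-numbered arrays of day 115 and day 5 had correlations of deviations from their group means of -0.284, 0.057 and 0.19. With day-5 deviations taken from the mean of arrays 1 to 3, they were 0.034, -0.056 and 0.133. Deviations within day 115 cancel over its 3 arrays, so these values cannot decide whether the replicate numbers in the titles pair the samples. With the replicate number as a block, 198 probe sets changed against 8 arrays (67.2% higher) and 597 against arrays 1 to 3 (59% higher).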
